A study of Mus musculus with 11 samples.

Results

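Kidney cell preparations taken 7 days after unilateral ureteral obstruction (UUO) were compared with preparations from control kidneys by RNA sequencing. The comparison uses 7 of the 11 libraries of the series, 4 from day 7 (replicates 1 to 4) and 3 from control kidneys (replicates 1 to 3), all from adult C57BL/6 mice. In both groups the kidneys were digested and the cells were enriched in DMEM with serum, and no other treatment is given. The other 4 libraries, from day 3 of obstruction, share the estimate of the spread and are not described. Of 13985 genes listed with FPKM values (fragment densities scaled for transcript length and library size), the 13428 with a mean of 0.5 FPKM or more over the 11 libraries were tested. Separate animals are not stated for the replicates. The p-values therefore rest on the spread between these libraries, which may be technical.

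Tying off a ureter stops the outflow of urine from that kidney, and the tubules dilate, lose transport and metabolic functions, and shrink. Macrophages enter the tissue, and fibroblasts and pericytes turn into matrix-secreting myofibroblasts under signals such as TGF-beta, PDGF and stretch. The model is widely used for kidney fibrosis, because the obstruction is not relieved and scar tissue builds up steadily.

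The labels describe all libraries as primary kidney fibroblasts, and the control levels of the genes given next went against that label. Collagen I (Col1a1) stood at 11.6, 19.8 and 14.4 FPKM in control, and the fibroblast receptor Pdgfra at 0.696, 0.66 and 0.697 FPKM. Lumican (Lum), a fibroblast proteoglycan, stood at 2.99, 1.63 and 2.87 FPKM there, and the surface marker Thy1 at 1.27, 1.66 and 1.31 FPKM. By contrast Kap, an androgen-regulated protein of proximal tubule cells, stood at 11990.0, 11838 and 9524 FPKM in the same libraries, and the tubule-secreted glutathione peroxidase Gpx3 at 4551, 4608 and 3663 FPKM. The day 7 libraries held fibroblast RNA at higher levels, with Lum at 175, 117, 82.5 and 151 FPKM and Thy1 at 37.8, 42.8, 15.4 and 34.5 FPKM, alongside RNA of macrophages and of tubule cells. The preparations are therefore called control and day 7 preparations here. In such bulk samples, fewer cells of a type and less RNA per cell cannot be told apart. Col1a2, Col3a1, Pdgfrb, Dcn and Vim were also set for the check of the label, and their control values are not given in the text.

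The groups stood far apart. The first principal component of the 7 libraries held 88.7% of the variance and separated control from day 7, and the second held 4.57%. Across genes, which are not independent replicates, libraries correlated at 0.979 to 0.992 within control, at 0.965 to 0.988 within day 7 and at 0.750 to 0.768 between the groups. The 13 genes of the mitochondrial genome made up 25.4% to 35.9% of the summed FPKM in control and 4.27% to 7.94% at day 7. FPKM tables carry no read counts, so the sequencing depth of each library is unknown.

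At an adjusted p under 0.05 (limma), 9379 of the 13428 genes were called, which is 69.8% of those tested. Of these, 6217 (46.3% of genes tested) were higher at day 7 and 3162 (23.5%) were lower. The libraries of the groups did not overlap for 9196 genes (68.5%), of which 8833 were called. The change was at least 2-fold in 2648 rises and 1476 falls, at least 8-fold in 208 rises and 179 falls, and at least 32-fold in 17 rises and 9 falls. For 2083 genes that were not called, the 95% interval of the log2 fold change lay within 0.5 of zero. The median log2 fold change of all genes was 0.28 toward day 7, and the medians of gene lists below are given relative to it, beside counts to be read against the shares just given. Those counts cover only the list members that were tested. The lists were chosen with earlier results of these data known, so a count above these shares is no test of a list. The filter took its mean over obstructed and control libraries, so a gene almost absent in control could pass through its level after obstruction. Log2 fold changes are on the log2(FPKM + 1) scale, which understates the change of genes with low levels, and a single number in brackets after a gene is its log2 fold change.

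The balance of rises and falls depended on the scaling of the libraries. Of the called genes, 66.3% were higher in the values as deposited, and 66.7% after rescaling to equal sums over nuclear genes. That share was 47.7% after median centring (4251 higher, 4654 lower), 50.1% with quantile-normalized libraries (4535 and 4512) and 81.3% with values rescaled to TPM (8559 and 1967). The median of all genes moved from 0.28 to −0.03, 0.01 and 0.77 under the last 3 of these. Of the 284 called genes named below, 277 kept their call and direction under every alternative scaling, filter and left-out library that tested them. The other 7, and lists whose balance turned, are named where they appear. Of the 25 named genes that were not called in the values as deposited, 21 were called under at least 1 alternative, most often another scaling, so that for them the absence of a call depends on the processing.

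**Figure D1:**
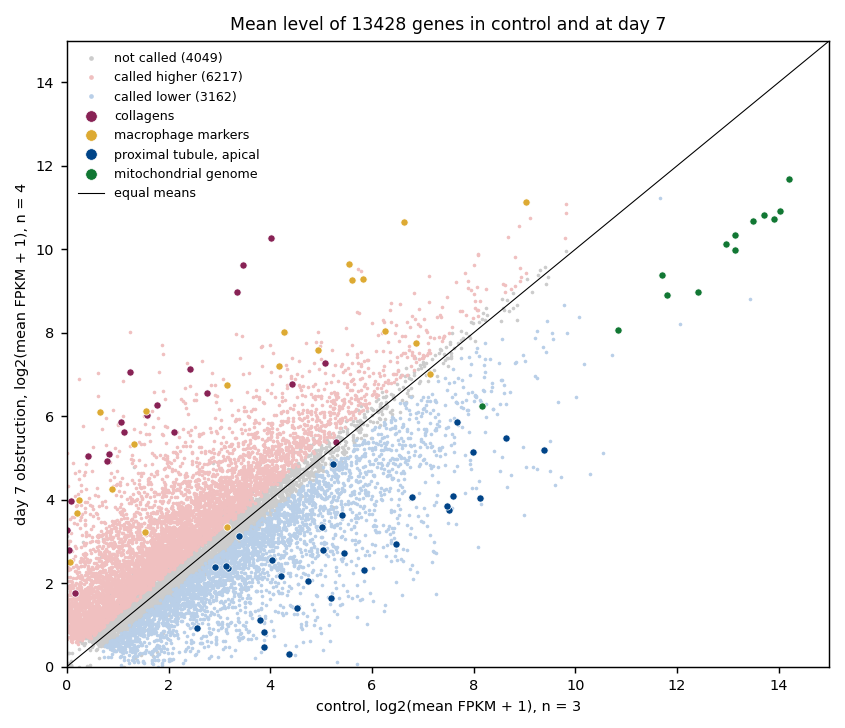
Mean level of each tested gene in control (x axis) and at day 7 (y axis), as log2(mean FPKM + 1), with called genes in colour and 4 gene lists marked. Collagens and most macrophage markers lie above the line of equal means, and the brush border genes of the proximal tubule and the mitochondrial genome lie below it.

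Some genes went from near absence to clear expression or the reverse. A mean under 0.5 FPKM in control and of 5 FPKM or more at day 7 was found for 95 genes, and the opposite for 25 genes. Among the first were Cthrc1, a secreted protein of activated fibroblasts, and Aspn, the proteoglycan asporin. Cthrc1 stood at 0.0634, 0.368 and 0.316 FPKM in control and at 67.5, 70.2, 21.6 and 55.5 FPKM at day 7. Aspn stood at 0.588, 0.242 and 0.453 FPKM and 79.4, 17.9, 29.4 and 22.3 FPKM. In both genes every day 7 library lay far above every control library, and for Cthrc1 replicate 3 was the lowest of the 4. Among the second were Pvalb, which encodes parvalbumin, a calcium buffer of distal tubule cells, and Nphs1, the slit diaphragm protein nephrin of podocytes. Pvalb stood at 57.4, 44.7 and 50.6 FPKM in control and at 0, 0, 0.0854 and 0.113 FPKM at day 7. Nphs1 stood at 7.28, 7.66 and 7.87 FPKM and 0.414, 0.417, 0.227 and 0.469 FPKM. The day 7 values of both lay below every control value, and Pvalb was listed at 0 in a pair of day 7 libraries.

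**Figure D2:**
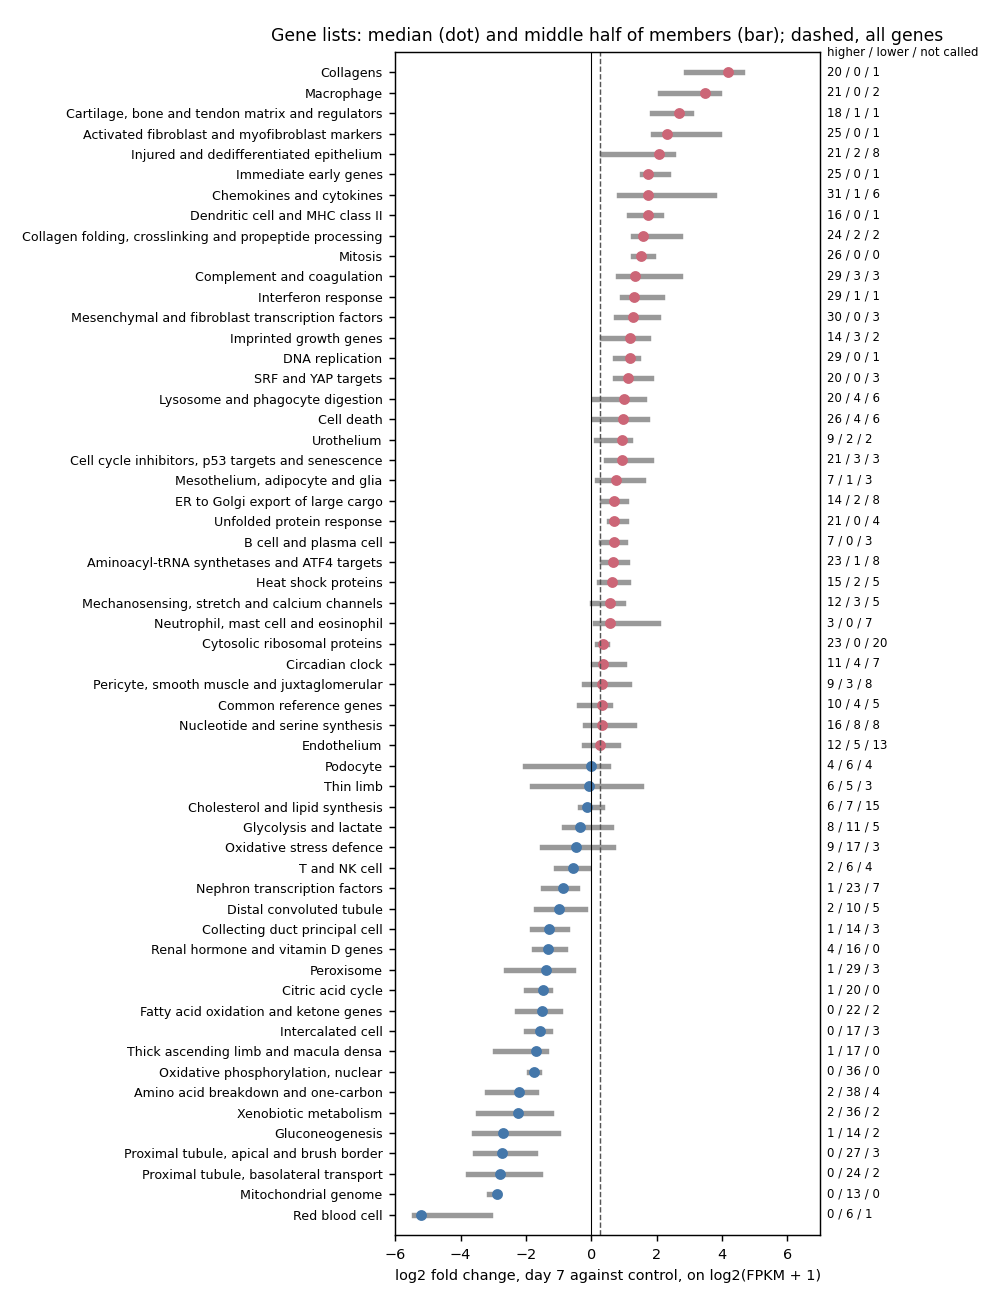
Median log2 fold change (dot) and the middle 50% of members (bar) of 57 gene lists, day 7 against control, with the number of members called higher, lower or not called on the right. The dashed line marks the median of all genes, and the lists run from collagens and macrophage markers at the top to the mitochondrial genome and red blood cell genes at the bottom.

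The gene with the largest rise was Timp1, the gene of a secreted metalloproteinase inhibitor (ENSMUSG00000001131.11, chromosome X, 20870166 to 20874735). It stood at 1.25, 1.94 and 0.893 FPKM in control and at 157, 527, 111 and 235 FPKM at day 7. Among the day 7 values replicate 2 was highest and replicate 3 lowest (log2 fold change 6.54, SE 0.45, adjusted p = 1.14e-07). Its promoter is shown because it belongs to the largest rise of the comparison. The sequence runs from 250 bases before to 50 bases after the RefSeq start of the gene (GRCm38.p6, chrX:20869916-20870215, plus strand). Capitals mark a match to the TEAD motif (GGAATG) at −247 and a CCAAT box (CCAAT, here on the opposite strand) at −190, counted from the start.
Timp1: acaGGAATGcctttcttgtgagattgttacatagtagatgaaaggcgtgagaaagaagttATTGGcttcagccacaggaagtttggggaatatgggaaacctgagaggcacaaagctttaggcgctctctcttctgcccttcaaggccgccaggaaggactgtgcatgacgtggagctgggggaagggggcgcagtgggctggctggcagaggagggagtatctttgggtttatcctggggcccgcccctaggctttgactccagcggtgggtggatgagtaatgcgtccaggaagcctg
The TEAD motif occurred in 12.4% and the CCAAT box in 37% of the 13177 promoters of tested genes in the RefSeq table, which covers 10369 of 13413 symbols. Motifs here and below were searched on both strands, and a match is a description of the letters only.

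The other large rises outside the gene lists were mostly of secreted matrix proteins and proteases. Fibronectin (Fn1), the scaffold on which collagen fibrils are laid down, changed by 5.75, and fibrillin 1 (Fbn1), of the microfibrils that store TGF-beta, stood at 0.852, 0.798 and 0.949 FPKM in control and 60, 93.7, 31.2 and 97.2 FPKM at day 7 (5.13). The gelatinase Mmp2 stood at 2.25, 2.74 and 3.13 FPKM in control and 115, 112, 48.2 and 113 FPKM at day 7 (4.65), and Mmp14, the membrane protease that activates it, at 2.38, 3.38 and 2.6 FPKM in control and 108, 96.9, 44.6 and 87.9 FPKM at day 7 (4.43). The genes of this paragraph were chosen among called genes without overlap between the groups, so their lack of overlap is not a result. Tnfaip6 (4.77) and Ptx3 (4.67), which together crosslink hyaluronan in inflamed tissue, the matricellular protein Nov (4.41), the protease inhibitor Serpina3n (4.73), the carboxypeptidase-like Cpxm1 (4.71) and the macrophage membrane protein Ms4a6d (4.74) completed this group with Timp1 and Aspn.

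Most collagens rose. Of 21 collagen genes on the list, 20 rose, 0 fell and 1 was not called, and their median lay 3.92 above all genes. Of all 33 tested symbols that begin with Col and a digit, Col4a3bp among them, 26 rose and 3 fell. Col4a3 (log2 fold change −1.79) and Col4a4 (−1.65), chains of mature glomerular basement membrane, and the low Col26a1 (−0.38) were those that fell, and they were named after their values were seen. Col26a1 was not called after rescaling to TPM (adjusted p = 0.398), nor without control replicate 2 (adjusted p = 0.172), day 7 replicate 1 (adjusted p = 0.0518) or day 7 replicate 4 (adjusted p = 0.0816). The list member not called was Col18a1, the basement membrane collagen that yields endostatin, at 38 ± 13.1 FPKM in control and 40.8 ± 3.57 FPKM at day 7 (SD, n = 3 and n = 4). The rise was not limited to the fibrillar chains. The microfibrillar chain Col6a3 changed by 4.67 on the log2 scale, the fibril-associated Col12a1 by 4.19, the short-chain Col8a1 by 4.33, and the basement membrane chain Col4a1 by 2.13. Col10a1, a chain known from growth plate cartilage, was listed at 0 in all 3 control libraries and stood at 12.5, 12.7, 0.823 and 8.43 FPKM at day 7 (2.91, and 3.59 without replicate 3). As a share of the FPKM of nuclear genes, the collagens held 0.0506% to 0.0658% in control and 1.7, 1.71, 0.677 and 1.69% in day 7 replicates 1 to 4. Replicate 3 thus held less than the other 3 day 7 libraries and still about 10 times the control share. Col1a1 stood at 1492, 1498, 563 and 1391 FPKM at day 7, and its log2 fold change was 6.18 with replicate 3 and 6.52 without it.

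Genes that process procollagen moved with it. Of 28 genes for collagen folding, crosslinking and propeptide cleavage, 24 rose, 2 fell and 2 were not called (median 1.30 above all genes). Lysyl oxidase (Lox), which starts the crosslinking of collagen and elastin outside the cell, stood at 1.18, 0.934 and 1.3 FPKM in control and at 118, 148, 49.6 and 141 FPKM at day 7. The groups did not overlap (log2 fold change 5.64, SE 0.35, adjusted p = 5.94e-08). Its relatives Loxl1 (4.33) and Loxl2 (3.89), the procollagen chaperone Fkbp10 (3.91) and the N-propeptide protease Adamts2 (3.67) followed. The procollagen C-proteinase Bmp1 changed by 3.65. The 2 falls were those of P3h2 (−1.22), a prolyl 3-hydroxylase of basement membrane collagen, and Colgalt2 (−1.43), a collagen galactosyltransferase. Their relative P3h1 (1.72) rose, as did Colgalt1, a collagen galactosyltransferase, from 8.27, 5.65 and 4.8 FPKM in control to 17.5, 24.7, 16.8 and 24.3 FPKM at day 7.

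The secretory route changed less. Of 24 genes for the export of large cargo from the endoplasmic reticulum, 14 rose, 2 fell and 8 were not called (median 0.42 above all genes), with 22 rises and 0 falls after rescaling to TPM. The rises were led by Kdelr3 (3.64), which returns chaperones to the endoplasmic reticulum, and Creb3l1 (3.02), a membrane-bound transcription factor for collagen secretion. The COPII coat subunits Sec24d (1.69) and Sec23a (1.40) rose as well.

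Genes of cartilage, bone and tendon matrix were high at day 7. Of 31 such genes listed, 20 were tested. Among those, 18 rose, 1 fell and 1 was not called (median 2.41 above all genes). Tenascin C (Tnc), a matricellular protein of wounds and tendon, stood at 0.921, 1.28 and 1.33 FPKM in control and at 77.1, 59.6, 26.8 and 32.8 FPKM at day 7. The cartilage protein Cilp stood at 0.422, 0.443 and 0.334 FPKM in control and 21.8, 27.4, 14.4 and 34.7 FPKM at day 7, and the calcification inhibitor Mgp at 24.4, 37.7 and 26.4 FPKM in control and 311, 278, 165 and 284 FPKM at day 7. In none of these 3 genes did the groups overlap. Also called were Prg4 (2.79), the joint lubricant, Tnmd (2.71), the tendon protein tenomodulin, Fmod (3.05), a collagen-binding proteoglycan, and Comp (1.21), the cartilage oligomeric matrix protein. The fall was that of Alpl (−2.16), the alkaline phosphatase that bone shares with the proximal tubule.

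Fibroblast markers rose as a group. Of 26 markers of activated fibroblasts and myofibroblasts, 25 rose and 0 fell (median 2.04 above all genes). Their share of the nuclear FPKM was 0.0617% to 0.0717% in control and 0.716, 0.59, 0.332 and 0.544% in day 7 replicates 1 to 4. The adhesion molecule Cdh11 (3.81), known from fibroblast-like cells of inflamed joints, the microfibril protein Mfap5 (4.42) and Fbln2 (4.37), a glycoprotein of basement membranes and elastic fibres, were among the largest changes. Scara5 (2.01) and Pi16 (2.74), known as marks of resting adventitial fibroblasts, also rose. So did Lrrc15 (2.23) and Fap (1.84), known from fibroblasts of tumours. Myl9, the regulatory myosin light chain of smooth muscle, was the member not called, at 26.7 ± 9.42 FPKM in control and 37.2 ± 14 FPKM at day 7, and it was called without day 7 replicate 3 (adjusted p = 0.0103).

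**Figure D3:**
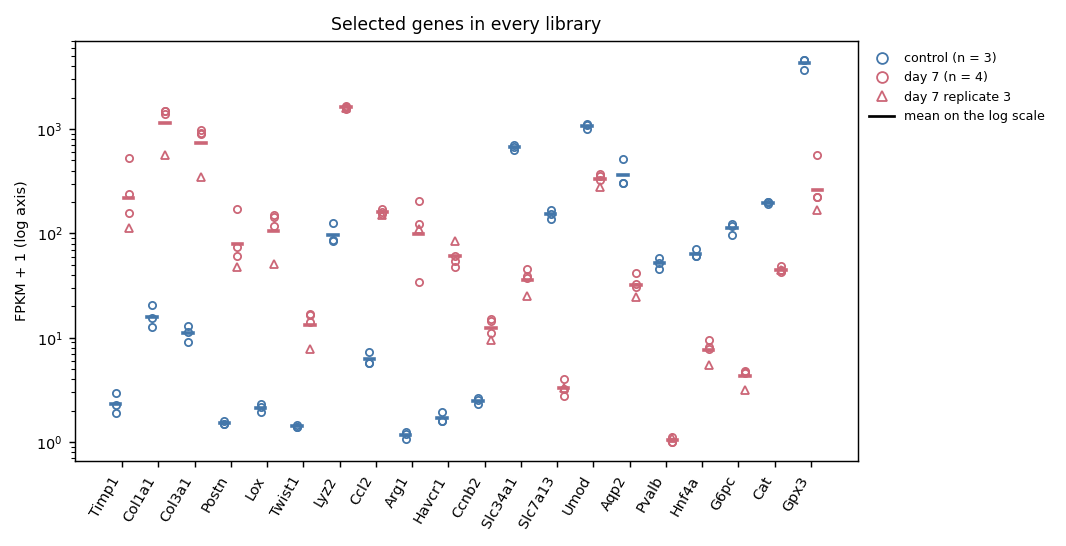
FPKM + 1 of 20 genes in each of the 3 control and 4 day 7 libraries on a log axis, with day 7 replicate 3 as a triangle and the mean on the log scale as a line. No gene overlaps between the groups, and replicate 3 is the lowest day 7 library for Timp1, Col1a1, Col3a1, Postn, Lox and Twist1 and the highest for Havcr1.

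Transcription factors of mesenchyme rose together. Of 33 such factors, 30 rose and 0 fell (median 1.00 above all genes). Twist1, a helix-loop-helix factor of mesenchymal cells, stood at 0.397, 0.401 and 0.457 FPKM in control and at 15.8, 15.3, 6.71 and 13.3 FPKM at day 7 (log2 fold change 3.22, SE 0.27, adjusted p = 5.25e-07). The lowest day 7 value was that of replicate 3, and it lay above every control value. Snai1 (2.85), which represses epithelial genes, Prrx1 (2.63), a homeobox factor of limb and skin fibroblasts, Runx1 (2.38) and Hic1 (2.22), a factor of quiescent stromal progenitors, rose. Sox9, a factor of cartilage and of regenerating tubule cells, stood at 2.06, 1.76 and 1.64 FPKM in control and 18.6, 17.5, 18.3 and 20.7 FPKM at day 7. Its day 7 values lay close together, and replicate 3 was not low. Gli1 (1.74), a hedgehog target in perivascular cells, also rose.

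Imprinted growth genes formed a further rising group. Of 19 imprinted genes, 14 rose, 3 fell and 2 were not called (median 0.92 above all genes). Mest, a mesoderm-specific gene expressed from the paternal allele, stood at 0.83, 0.669 and 0.938 FPKM in control and at 12, 5.96, 5.09 and 12 FPKM at day 7. Every day 7 value lay above every control value (log2 fold change 2.35, SE 0.26, adjusted p = 5.6e-06). Grb10 (2.07), an adaptor that restrains insulin signalling, Peg10 (1.86), a gene derived from a retrotransposon, Peg3 (1.86), Plagl1 (1.63) and Igf2 (1.20), a fetal growth factor, were called. The falls included Phlda2 (−2.04), which limits placental growth, and Cdkn1c (−1.05), a cell cycle inhibitor that podocytes express. Both are expressed from the maternal allele.

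Targets of the mechanosensitive factors SRF and YAP rose. Of 23 entries, 20 rose and 0 fell (median 0.83 above all genes). Ctgf, a matricellular YAP target, stood at 39.4, 51.3 and 41 FPKM in control and at 322, 285, 221 and 269 FPKM at day 7. Cyr61, its close relative, stood at 121, 170.4 and 122 FPKM in control and 737, 660.1, 593 and 647 FPKM at day 7. The groups overlapped for neither gene, and the log2 fold changes were 2.61 and 2.26. The receptor kinase Axl (2.62), the actin crosslinkers Flna (1.86) and Actn1 (1.76), the focal adhesion protein Zyx (1.73) and Srf itself (1.02) rose. The factor Tead1, through which YAP binds DNA, was not called (1.29 ± 1.19 FPKM in control and 0.66 ± 0.346 FPKM at day 7). The TEAD motif occurred in 9 of the 18 promoters found for this list (50%), and the CArG box bound by SRF in 3 of 18 (16.7%, against 1.29% of all promoters).

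Channels and purinergic receptors that respond to stretch or released ATP changed in both directions. Of 20 such genes, 12 rose, 3 fell and 5 were not called (median 0.31 above all genes). P2rx7, the ATP-gated channel of macrophages, stood at 0.966, 1.19 and 0.758 FPKM in control and at 19.7, 21.8, 20.4 and 16.4 FPKM at day 7. The cation channel Piezo2 stood at 0.323, 0.279 and 0.319 FPKM in control and 3.69, 3.65, 1.71 and 4.18 FPKM at day 7. Trpv2 (1.97) and the ATP release channel Panx1 (1.57) rose, and Trpv4 (−0.95), an osmosensitive channel of tubule epithelium, fell. P2rx7 and Trpv4 moved in the direction of the macrophage and of the tubule lists. The part of those cells in these changes was not tested.

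Macrophage RNA was several times higher at day 7. Of 23 entries in the macrophage list, 21 rose and 0 fell (median 3.20 above all genes). The list held 0.456% to 0.499% of the nuclear FPKM in control and 2.88, 2.79, 3.49 and 2.9% in day 7 replicates 1 to 4, with replicate 3 highest. Lysozyme (Lyz2) stood at 84.8, 124 and 84.4 FPKM in control and at 1565, 1633, 1575 and 1667 FPKM at day 7. Apoe, the lipid carrier, stood at 46.5, 49.2 and 41.2 FPKM in control and 813, 812, 804 and 791 FPKM at day 7, and the mannose receptor Mrc1 at 1.91, 1.9 and 2.03 FPKM in control and 58.2, 59.4, 84.7 and 72.7 FPKM at day 7. The day 7 libraries agreed closely for Lyz2 and Apoe, unlike for the collagens. Fcrls (5.47), an Fc receptor-like protein of resident macrophages and microglia, showed the largest change of the list. Gpnmb (3.71) and Trem2 (3.47), known from lipid-laden macrophages, the scavenger receptor Cd163 (2.38) and the growth factor receptor Csf1r (3.05) rose too. Mertk, a receptor for dying cells, was not called (7.81 ± 1.53 FPKM in control and 9.19 ± 1.67 FPKM at day 7).

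Lysosomal digestion genes rose in most cases. Of 30 genes, 20 rose, 4 fell and 6 were not called (median 0.71 above all genes). Cathepsin K (Ctsk), a collagen-degrading protease, stood at 1.29, 1.58 and 1.57 FPKM in control and at 66.3, 52.7, 23.7 and 59.6 FPKM at day 7, with replicate 3 lowest. Cathepsin S (Ctss), a protease of antigen-presenting cells, stood at 48.6, 63.6 and 51.1 FPKM in control and 713, 616, 837 and 687 FPKM at day 7, with replicate 3 highest. The groups overlapped for neither gene. The falls included the sulfatase Galns (−1.14) and the sialidase Neu1 (−0.91). The lysosomal membrane protein Lamp1 was not called (306 ± 29.5 FPKM in control and 341 ± 36 FPKM at day 7).

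Other leukocyte lists differed in direction. Of 17 genes of dendritic cells and MHC class II, 16 rose and 0 fell (median 1.46 above all genes), led by H2-DMa (2.72), which loads peptides onto class II molecules. The class II invariant chain Cd74 was high already in control, at 648, 599.6 and 399.7 FPKM, against 1739, 1562, 1925 and 1608 FPKM at day 7. Of 26 T and NK cell genes listed, 12 were tested. Among those, 2 rose, 6 fell and 4 were not called (median −0.84 against all genes), with 10 falls in quantile-normalized libraries. Granzyme A (Gzma), a protease of cytotoxic cells, stood at 4.86, 6.09 and 3.4 FPKM in control and at 0.172, 0.0787, 0.27 and 0.414 FPKM at day 7. Every day 7 library lay below every control library (log2 fold change −2.21, SE 0.15, adjusted p = 9.62e-08). Nkg7 (−1.48), a granule protein, fell with it, while Cd4 (1.68), the coreceptor of helper T cells, rose. Among the members that reached a mean of 2 FPKM the median was 1.27 above all genes, so the direction of the list depended on its low genes. The T cell kinase Lck was not called (0.993 ± 0.36 FPKM in control and 0.98 ± 0.211 FPKM at day 7).

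B cell genes rose by small amounts, and most granulocyte genes were not called. Of 21 B and plasma cell genes listed, 10 were tested. Among those, 7 rose and 3 were not called (median 0.40 above all genes). The immunoglobulin signalling chain Cd79a was not called (2.13 ± 0.607 FPKM in control and 2.6 ± 0.851 FPKM at day 7). Of 24 listed genes of neutrophils, mast cells and eosinophils, 10 were tested. Among those, 3 rose and 7 were not called (median 0.30 above all genes). The rises were the gelatinase Mmp9 (3.29), the neutrophil collagenase Mmp8 (3.27) and the receptor Csf3r (2.49). The neutrophil protein S100a8 was not called, with 13.2, 8.6 and 9.56 FPKM in control and 10.8, 19.4, 18.7 and 23.6 FPKM at day 7. It was called when the day 3 libraries were left out of the fit (adjusted p = 0.0273).

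**Figure D4:**
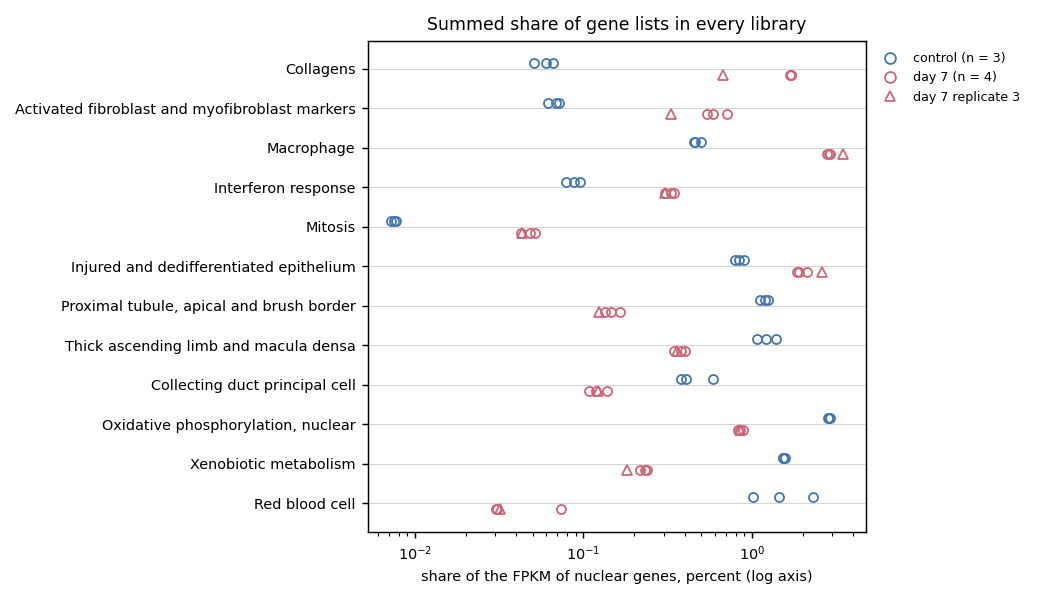
Summed FPKM of 12 gene lists as a percent of the FPKM of all nuclear genes, in each of 3 control and 4 day 7 libraries on a log axis, with day 7 replicate 3 as a triangle. No list overlaps between the groups, and replicate 3 is the lowest day 7 library for collagens and fibroblast markers and the highest for macrophage markers and injured epithelium.

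Interferon-induced genes rose broadly. Of 31 listed genes, 29 rose, 1 fell and 1 was not called (median 1.04 above all genes). Oas1a, an enzyme that senses double-stranded RNA, stood at 2.21, 4.23 and 2.06 FPKM in control and at 26.3, 35.7, 28.9 and 31.1 FPKM at day 7. Isg15, a ubiquitin-like modifier, stood at 14.8, 21.5 and 14.9 FPKM in control and 77.5, 94.1, 58.7 and 74 FPKM at day 7. Both genes were higher in every day 7 library than in any control library (log2 fold changes 3.08 and 2.09). Ifi27l2a (2.89), the antiviral GTPase Mx1 (2.55), the tether Bst2 (2.41) and the factor Irf7 (2.24) were called. The fall was that of Ifit3 (−0.45, adjusted p = 0.0227), and it was no longer called with the replicate number as a block (adjusted p = 0.0549), without control replicate 2 (adjusted p = 0.0984) or without day 7 replicate 2 (adjusted p = 0.0645). It changed by 0.01 after rescaling to TPM. The interferon element (GAAANNGAA, any base at N) occurred in 53.1% of the 32 promoters found for this list, against 7.4% of all promoters. The promoters of Oas1a (GRCm38.p6, chr5:120907476-120907775, minus strand) and Isg15 (chr4:156200769-156201068, minus strand) are shown from RefSeq because both hold the element in overlapping copies, which capitals mark.
Oas1a: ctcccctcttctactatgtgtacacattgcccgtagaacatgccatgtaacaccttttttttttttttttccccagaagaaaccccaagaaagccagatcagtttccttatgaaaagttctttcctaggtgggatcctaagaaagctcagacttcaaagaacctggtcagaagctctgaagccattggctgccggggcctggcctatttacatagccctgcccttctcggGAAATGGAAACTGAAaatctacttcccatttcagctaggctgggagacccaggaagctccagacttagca
Isg15: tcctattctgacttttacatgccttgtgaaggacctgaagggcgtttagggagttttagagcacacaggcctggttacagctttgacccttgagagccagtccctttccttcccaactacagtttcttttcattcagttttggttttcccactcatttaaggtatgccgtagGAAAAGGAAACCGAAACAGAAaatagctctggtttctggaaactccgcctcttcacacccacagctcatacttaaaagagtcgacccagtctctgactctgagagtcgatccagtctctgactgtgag
In Oas1a the matches start at −20 and −14, and in Isg15 at −78, −72 and −66.

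Secreted signals rose with few exceptions. Of 38 chemokine and cytokine entries, 31 rose, 1 fell and 6 were not called (median 1.46 above all genes). Ccl2, which attracts monocytes, stood at 4.77, 4.74 and 6.37 FPKM in control and at 160.3, 169, 148 and 154 FPKM at day 7. Ccl7, from the same gene cluster, stood at 3.75, 3.46 and 5.14 FPKM in control and 144, 164, 156 and 155 FPKM at day 7, and platelet factor 4 (Pf4) at 2.77, 3.37 and 1.94 FPKM in control and 105, 231, 155 and 222 FPKM at day 7. None of the 3 overlapped between the groups. Il33, an alarm signal released from stromal cells, changed by 3.99, Il10, which restrains inflammation, by 3.26, Il11, a fibroblast cytokine, by 2.59, and Il6 by 2.04. Tnf (1.44) and Il1b (1.10) changed less. Ccl4 was not called (141 ± 24.3 FPKM in control and 129.5 ± 36.7 FPKM at day 7). The fall was that of Cx3cl1, the tethered chemokine fractalkine, at 12.1, 19.9 and 2.62 FPKM in control and 2.18, 3.13, 3.58 and 3.48 FPKM at day 7. Control replicate 3 lay within the day 7 values, the log2 fold change was −1.30 and, without that library, −2.03, and the call was lost without control replicate 1 (adjusted p = 0.0698) or 2 (adjusted p = 0.0997) and after rescaling to TPM (adjusted p = 0.0735).

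Complement and coagulation genes rose as well. Of 35 genes, 29 rose, 3 fell and 3 were not called (median 1.06 above all genes). Complement C3, the central component, stood at 13.1, 11.9 and 15 FPKM in control and at 183, 253, 153 and 236 FPKM at day 7. Properdin (Cfp), which stabilises the alternative convertase, stood at 3.54, 5.78 and 3.77 FPKM in control and 81.6, 128, 96.7 and 111 FPKM at day 7. The groups did not overlap for either. C4b (4.26), the protease C1s1 (3.86), the inhibitor Serping1 (3.33) and the crosslinking factor F13a1 (4.17) were called higher. Protein C (Proc), an anticoagulant made in liver and kidney, stood at 50.7, 47.9 and 46.5 FPKM in control and at 4.31, 3.51, 2.99 and 4.03 FPKM at day 7 and was the largest fall of the list (−3.40).

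Proximal tubule genes fell at both faces of the cell. Of 30 genes of the apical membrane and brush border, 27 fell, 0 rose and 3 were not called (median −3.01 against all genes). Their share of the nuclear FPKM was 1.12% to 1.25% in control and 0.124% to 0.164% at day 7. The phosphate cotransporter Slc34a1 stood at 669, 699 and 631 FPKM in control and at 36, 38, 24.2 and 44.7 FPKM at day 7 (log2 fold change −4.21, SE 0.25, adjusted p = 4.57e-08). Replicate 3 was the lowest of the 4, and all lay far below control. The urate exchanger Slc22a12 (−4.08), the brush border protease Mep1b (−4.05), the glucose cotransporter Slc5a2 (−3.54) and the endocytic receptors Lrp2 (−3.55) and Cubn (−2.68) fell. The dipeptidase Dpp4, also found on other cells, was not called (9.46 ± 1.98 FPKM in control and 7.77 ± 1.12 FPKM at day 7).

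Of 26 genes of organic ion and basolateral transport in the proximal tubule, 24 fell, 0 rose and 2 were not called (median −3.08 against all genes). Slc7a13, an amino acid carrier of the last tubule segment, stood at 167, 135 and 152 FPKM in control and at 1.74, 2.2, 2.33 and 3.03 FPKM at day 7. Slc22a7, an organic anion carrier, stood at 36.8, 41.6 and 38.2 FPKM in control and 0, 0.0836, 0.0485 and 0.152 FPKM at day 7, so that it was near or at 0 in all day 7 libraries. Slc22a6, which takes up drugs and toxins, stood at 140.1, 164 and 134 FPKM in control and 5.98, 6.08, 3.77 and 7.35 FPKM at day 7. The groups were far apart in all 3 genes, at log2 fold changes of −5.53, −5.22 and −4.46.

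The motif GTTAAT, on either strand, was frequent in the promoters of the largest falls. It occurred in 19.8% of the 162 promoters of genes that fell at least 8-fold, against 4.86% of all promoters, and in 27.8% of the 36 promoters of the xenobiotic list described below. The HNF4 motif (CAAAGTCCA) occurred in 4.32% of the same 162 promoters, against 0.455% of all. The TATA box (TATAAA) occurred in 20.4% of them, in 20.6% of the 165 promoters of genes that rose at least 8-fold, and in 7.68% of all promoters. The promoters of Miox, an inositol-degrading enzyme with the largest fall outside the lists, G6pc, the glucose-releasing phosphatase, and Slc22a6 are shown from RefSeq as examples. They lie at chr15:89334223-89334522, plus strand, at chr11:101367466-101367765, plus strand and at chr19:8617746-8618045, plus strand (GRCm38.p6). Capitals mark GTTAAT, at −142 (on the opposite strand), −221 and −56, and in the first 2 also the TATA box, at −40 and −29.
Miox: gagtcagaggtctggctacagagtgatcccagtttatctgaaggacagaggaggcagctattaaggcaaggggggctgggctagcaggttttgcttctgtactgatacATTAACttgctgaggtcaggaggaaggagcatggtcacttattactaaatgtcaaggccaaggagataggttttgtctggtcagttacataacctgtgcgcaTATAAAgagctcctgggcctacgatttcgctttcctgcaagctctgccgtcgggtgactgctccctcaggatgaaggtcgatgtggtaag
G6pc: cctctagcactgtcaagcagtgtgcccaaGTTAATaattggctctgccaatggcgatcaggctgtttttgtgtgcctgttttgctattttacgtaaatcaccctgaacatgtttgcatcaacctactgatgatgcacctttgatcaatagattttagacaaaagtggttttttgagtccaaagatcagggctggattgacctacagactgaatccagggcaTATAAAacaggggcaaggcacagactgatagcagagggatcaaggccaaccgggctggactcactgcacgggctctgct
Slc22a6: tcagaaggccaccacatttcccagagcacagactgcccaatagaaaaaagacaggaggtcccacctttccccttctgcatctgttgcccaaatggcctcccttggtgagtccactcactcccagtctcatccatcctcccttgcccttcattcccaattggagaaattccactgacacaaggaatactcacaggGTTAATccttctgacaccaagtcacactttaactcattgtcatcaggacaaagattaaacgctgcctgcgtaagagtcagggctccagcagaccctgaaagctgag
Miox stood at 778, 891 and 669 FPKM in control and at 22.5, 19.6, 13.7 and 21.7 FPKM at day 7 (log2 fold change −5.27, SE 0.24, adjusted p = 9.17e-09). The day 7 values lay far below control, with replicate 3 lowest.

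Other large falls outside the lists belonged to the same segment or to secreted kidney proteins. Acy3 (−4.81), an aminoacylase, Acsm3 (−4.90), a fatty acid activating enzyme, Dnase1 (−4.88), the secreted nuclease, Ttr (−4.77), the thyroid hormone carrier, and Slco1a1 (−4.54), an organic anion carrier, were among the 12 largest. Nccrp1 (−4.91), Spp2 (−4.70), the carboxylesterase Ces1f (−4.68) and the organic anion carrier Slc22a28 (−4.52) were the others not described elsewhere, and the last 2 belong to clusters of similar genes between which reads may be divided uncertainly. Cyp2d9, a male-biased cytochrome of mouse kidney and liver, stood at 27.6, 39.5 and 28.3 FPKM in control and at 0.29, 0.408, 0.25 and 0.322 FPKM at day 7. Kap stood at 442, 455, 403 and 478 FPKM at day 7 (−4.64). Klk1, tissue kallikrein of the connecting tubule, stood at 1704, 1761 and 1599 FPKM in control and 138, 193, 201 and 169 FPKM at day 7. Klk1 did not overlap between the groups. For Kap and the other largest falls outside the lists, a lack of overlap was a condition of the choice.

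Genes of the thick ascending limb fell. Of 18 genes, 17 fell, 1 rose (median −1.96 against all genes), and the share of the nuclear FPKM was 1.07% to 1.4% in control and 0.344% to 0.403% at day 7. The growth factor precursor Egf stood at 134, 114 and 206 FPKM in control and at 4.5, 4.84, 3.94 and 9.19 FPKM at day 7 (−4.54). Uromodulin (Umod), an abundant protein of urine, stood at 999, 1114 and 1098 FPKM in control and 357, 366, 276 and 326 FPKM at day 7 (−1.70). Every day 7 library lay below every control library for both genes, and the SEs were 0.27 and 0.15. The salt cotransporter Slc12a1, which loop diuretics block, changed by −2.98, and the potassium channel Kcnj1 by −2.15. The rise was that of Cldn14 (0.69), a claudin that limits calcium uptake, from 0.0753 ± 0.0293 to 0.743 ± 0.212 FPKM, and it was not called after quantile normalization (adjusted p = 0.0649).

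Distal segments fell with an exception in the calcium pathway. Of 17 distal convoluted tubule genes, 10 fell, 2 rose and 5 were not called (median −1.26 against all genes). Calbindin (Calb1), which shuttles calcium through the cell, stood at 118, 80.9 and 127 FPKM in control and at 7.86, 8.22, 10.4 and 9.58 FPKM at day 7 (−3.44). Trpv5, the apical calcium channel of the same cells, stood at 7.57, 6.93 and 9.14 FPKM in control and 25.2, 29.2, 40.8 and 30.7 FPKM at day 7 (1.86). These genes of the same transport route thus moved in opposite directions, each without overlap between the groups. The thiazide-sensitive cotransporter Slc12a3 changed by −0.99, a call that was lost without control replicate 1 (adjusted p = 0.0551) or 3 (adjusted p = 0.0654). After rescaling to TPM it changed by −0.52 and was not called (adjusted p = 0.155). The magnesium channel Trpm6 was not called (3.01 ± 0.977 FPKM in control and 2.79 ± 0.763 FPKM at day 7).

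In the collecting duct, 14 of 18 principal cell genes fell, 1 rose and 3 were not called (median −1.56 against all genes). The vasopressin-regulated water channel Aqp2 stood at 306, 516 and 302 FPKM in control and at 31.8, 41.1, 23.7 and 29.5 FPKM at day 7 (−3.51). Aqp3, at the other face of the cell, stood at 124, 221 and 126 FPKM in control and 19.3, 25.2, 17.3 and 20.3 FPKM at day 7 (−2.84). Control replicate 2 was the highest library for both, and the groups did not overlap. The sodium channel subunit Scnn1a (−1.50) and the vasopressin receptor Avpr2 (−1.88) fell, while Gata3, a factor of the duct, was not called (10.6 ± 1.59 FPKM in control and 11.5 ± 2.91 FPKM at day 7). Of 20 intercalated cell genes, 17 fell, 0 rose and 3 were not called (median −1.86 against all genes). Slc4a1, the anion exchanger of acid-secreting cells and of red blood cells, changed by −3.57, the ammonia channel Rhbg by −2.83, and the factor Foxi1, which specifies these cells, by −1.26.

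Thin limb genes were divided. Of 14 genes, 6 rose, 5 fell and 3 were not called (median −0.34 against all genes), and median centring gave 6 rises and 7 falls. Among the members that reached a mean of 2 FPKM the median was 0.24 above all genes. The water channel Aqp1 (−2.89) and the urea transporter Slc14a2 (−2.42) fell. Ceruloplasmin (Cp, 2.04), follistatin (Fst, 2.03) and the calcium-binding S100a6 (1.70), which other cell types also express, rose.

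Injury markers of tubule epithelium rose. Of 31 genes, 21 rose, 2 fell and 8 were not called (median 1.80 above all genes). Havcr1, the kidney injury molecule KIM-1, stood at 0.609, 0.587 and 0.921 FPKM in control and at 54, 46.5, 83 and 60.3 FPKM at day 7 (log2 fold change 5.16, SE 0.23, adjusted p = 9.22e-09). The iron carrier Lcn2 stood at 5.75, 8.04 and 5.91 FPKM in control and 78.2, 53, 159 and 67 FPKM at day 7 (3.46). Replicate 3, the lowest day 7 library for collagens, was the highest for both. Vcam1 (2.84), Krt20 (2.87), the keratin of surface epithelia, Clu (2.11), the chaperone clusterin, and Cd44 (2.11), a hyaluronan receptor, rose. The simple epithelial keratins Krt8 and Krt18 were not called, but were so without control replicate 2 (adjusted p = 0.0156 and 0.0183). Krt8 stood at 291 ± 125 FPKM in control and 353 ± 42.1 FPKM at day 7, and Krt18 at 231 ± 108 FPKM in control and 256 ± 25.1 FPKM at day 7.

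Urothelial genes, from the lining of the renal pelvis, rose in part. Of 13 genes, 9 rose, 2 fell and 2 were not called (median 0.67 above all genes). The small proline-rich protein Sprr2f stood at 3.03, 3.56 and 4.39 FPKM in control and at 21.7, 28.2, 27.2 and 17.4 FPKM at day 7 (2.39). The basal keratin Krt14 stood at 0.456, 0.524 and 0.949 FPKM in control and 8.34, 9.31, 4.42 and 3.73 FPKM at day 7 (2.11). The groups overlapped for neither gene. The uroplakin Upk1b rose (1.19), and Upk1a was not called (2.3 ± 0.772 FPKM in control and 1.49 ± 0.671 FPKM at day 7).

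Podocyte genes were divided. Of 14 genes on the list, 6 fell, 4 rose and 4 were not called (median −0.29 against all genes), with 5 rises and 5 falls after rescaling to TPM. Podocalyxin (Podxl), the surface sialomucin, stood at 60.3, 65.1 and 62.7 FPKM in control and 11.4, 11.9, 9.03 and 14.5 FPKM at day 7 (−2.34). Wt1, the podocyte and mesothelial factor, was not called (1.28 ± 0.113 FPKM in control and 1.73 ± 0.675 FPKM at day 7).

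Vascular genes were near the median of all genes. Of 30 endothelial genes, 12 rose, 5 fell and 13 were not called (median −0.01 against all genes), where median centring gave 11 rises and 10 falls and rescaling to TPM gave 20 rises and 1 fall. The receptor Kdr and the nitric oxide synthase Nos3 were not called in the values as deposited. Kdr was called lower after median centring (adjusted p = 0.026) and Nos3 higher after rescaling to TPM (adjusted p = 0.000836). Kdr stood at 7.36 ± 0.557 FPKM in control and 6.66 ± 1.12 FPKM at day 7, and Nos3 at 2.93 ± 0.108 FPKM in control and 3.63 ± 0.39 FPKM at day 7. Ehd3, a gene of glomerular endothelium, fell (−1.69), and Aplnr (2.31), a receptor of sprouting vessels, rose. Lyve1, a hyaluronan receptor of lymphatic endothelium and of perivascular macrophages, stood at 0.191, 0.193 and 0.176 FPKM in control and at 4.88, 23, 7.25 and 6.61 FPKM at day 7. Replicate 2 was more than 3 times as high as the others, and the log2 fold change was 3.03 with it and 2.60 without it.

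Among 20 genes of pericytes, smooth muscle and juxtaglomerular cells, 9 rose, 3 fell and 8 were not called (median 0.05 against all genes). Enteric smooth muscle actin (Actg2) stood at 0.238, 0.161 and 0.124 FPKM in control and at 34, 22.9, 6.48 and 22.6 FPKM at day 7 (4.06). The smooth muscle myosin Myh11 was not called (6.56, 3.76 and 7.18 FPKM in control and 7.27, 4.69, 2.14 and 4.94 FPKM at day 7). Renin (Ren1) stood at 78.9, 74.1 and 81.6 FPKM in control and at 25.4, 18.1, 25.7 and 23.4 FPKM at day 7 and fell (−1.73). Hemoglobin transcripts were among the largest falls. Hba-a1 stood at 801, 1208 and 504 FPKM in control and at 14.7, 41.6, 16.5 and 16.1 FPKM at day 7, with replicate 2 highest in each group. Of 11 red blood cell genes listed, 7 were tested and 6 fell. The list held 1.02% to 2.32% of the nuclear FPKM in control and 0.0303% to 0.0733% at day 7. Of 23 mesothelial, adipocyte and glial genes listed, 11 were tested. Among those, 7 rose and 1 fell (median 0.48 above all genes). Mesothelin (Msln) was among the rises (1.62).

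Hormone-related genes of the kidney fell. Of 20 genes, 16 fell and 4 rose (median −1.60 against all genes). Klotho (Kl), the coreceptor of the phosphate hormone FGF23, stood at 60.4, 53 and 68.2 FPKM in control and at 9.61, 13.4, 12.8 and 14.1 FPKM at day 7 (−2.20). The parathyroid hormone receptor Pth1r (−2.14), the vitamin D receptor Vdr (−1.41), the thyroid hormone deiodinase Dio1 (−2.01) and the angiotensin receptor Agtr1a (−1.24) fell. Fgfr1 (1.10), the receptor that klotho pairs with, and the prostaglandin receptor Ptger4 (1.01) rose.

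Nephron transcription factors fell in most cases. Of 31 factors, 23 fell, 1 rose and 7 were not called (median −1.13 against all genes). Hnf4a, which maintains proximal tubule and liver genes, stood at 60.3, 70.2 and 59.5 FPKM in control and at 6.81, 7.13, 4.49 and 8.46 FPKM at day 7 (log2 fold change −3.08, SE 0.22, adjusted p = 1.41e-07). Every day 7 library lay below every control library, and replicate 3 was lowest. The fatty acid sensor Ppara changed by −1.61, and the mitochondrial regulator Esrra by −1.47. Lhx1, a factor of the developing nephron, was not called (4.96 ± 0.904 FPKM in control and 3.9 ± 0.778 FPKM at day 7).

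Mitochondrial genes fell. All 13 genes of the mitochondrial genome fell (median −3.16 against all genes), and with quantile-normalized libraries 12 fell and the median was −1.25. The values as deposited ran from mt-Nd3 at −3.46 to mt-Nd6 at −1.80. All 36 listed nuclear genes of oxidative phosphorylation fell as well (median −2.02 against all genes), within the narrow range from Cyc1 (−2.27) to Ndufs1 (−1.34). Cytochrome c1 (Cyc1), of complex III, stood at 274, 357 and 274 FPKM in control and at 54.1, 69.3, 60.1 and 63.4 FPKM at day 7. The groups did not overlap. Of 78 mitochondrial ribosomal protein genes, 72 fell and 0 rose. In the citric acid cycle, 20 of 21 genes fell and 1 rose (median −1.75 against all genes), with the largest fall in Pcx (−3.63), which refills the cycle, and a small one in citrate synthase Cs (−0.75).

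Fat burning followed the same course. Of 24 genes of fatty acid oxidation and ketone metabolism, 22 fell and 2 were not called (median −1.80 against all genes). The ketone-using enzyme Oxct1 stood at 333, 217 and 341 FPKM in control and at 47.9, 45.6, 48.5 and 50.1 FPKM at day 7 (−2.57). The medium-chain dehydrogenase Acadm changed by −2.42. Of 33 peroxisomal genes, 29 fell, 1 rose and 3 were not called (median −1.66 against all genes). The bifunctional enzyme Ehhadh stood at 94.2, 118 and 108 FPKM in control and 7.89, 7.61, 7.14 and 9.39 FPKM at day 7 (−3.58). Abcd3, a fatty acid carrier of the peroxisome membrane, fell (−1.38).

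Sugar metabolism split by pathway. Of 17 genes of gluconeogenesis and fructose use, 14 fell and 1 rose (median −2.98 against all genes). G6pc stood at 117, 95.5 and 121 FPKM in control and at 3.71, 3.58, 2.14 and 3.83 FPKM at day 7 (−4.71). Fbp1, the fructose bisphosphatase, stood at 383, 480.4 and 351 FPKM in control and 19.9, 19.9, 12.6 and 22.8 FPKM at day 7 (−4.37), and Pck1, the committed enzyme, at 267, 247 and 278 FPKM in control and 22.9, 18.2, 10.3 and 22.4 FPKM at day 7 (−3.83). Each fell far below control in all 4 day 7 libraries. Of 24 glycolytic entries, 8 rose, 11 fell and 5 were not called (median −0.63 against all genes), a balance that turned to 9 rises and 5 falls after rescaling to TPM. Hexokinase 2 (Hk2, 2.05) and hexokinase 3 (Hk3, 2.47), the form of myeloid cells, rose. The muscle phosphofructokinase Pfkm (−1.31) and triose phosphate isomerase Tpi1 (−1.28) fell. Pyruvate kinase Pkm was not called (99.7 ± 17.1 FPKM in control and 114 ± 29.1 FPKM at day 7).

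Amino acid breakdown fell apart from both arginases. Of 44 genes, 38 fell, 2 rose and 4 were not called (median −2.49 against all genes). Ass1, which makes arginine in the proximal tubule, stood at 689, 841 and 629.5 FPKM in control and at 40.7, 50.5, 29.4 and 44 FPKM at day 7 (−4.11). Arg1, which breaks arginine down in liver and in macrophages, stood at 0.0607, 0.199 and 0.259 FPKM in control and 32.9, 205, 109 and 122 FPKM at day 7 (6.40), with a 6-fold range among the day 7 libraries. The lowest of them still lay above every control value. Arg2, the mitochondrial form, changed by 1.67. The tryptophan pathway enzymes Acmsd (−4.17) and Kmo (−1.90) and the tyrosine pathway enzyme Hgd (−3.95) fell.

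Synthesis pathways gave mixed results. Of 32 genes of nucleotide, serine and proline synthesis, 16 rose, 8 fell and 8 were not called (median 0.04 against all genes), with 21 rises and 3 falls after rescaling to TPM. Both enzymes that lead from glutamate to proline, an amino acid abundant in collagen, rose, Aldh18a1 by 1.83 and Pycr1 by 1.72. Pycr1 stood at 0.0171, 0.055 and 0.0515 FPKM in control and at 3.06, 2.92, 1.26 and 2.89 FPKM at day 7, with replicate 3 lowest. Prodh, the enzyme that opens proline breakdown, fell (−2.76). The mitochondrial serine enzyme Shmt2 fell (−2.19) and the folate enzyme Mthfd2 rose (1.46). Of 28 genes of cholesterol and lipid synthesis, 6 rose, 7 fell and 15 were not called (median −0.41 against all genes), with 11 rises and 3 falls after rescaling to TPM and 4 rises and 14 falls after median centring. Insig1 (1.78), a feedback inhibitor, rose.

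Drug-metabolising enzymes fell. Of 40 genes, 36 fell, 2 rose and 2 were not called (median −2.53 against all genes), and their share of the nuclear FPKM was 1.52% to 1.57% in control and 0.181% to 0.237% at day 7. The cytochrome Cyp4b1 stood at 553, 726 and 529 FPKM in control and at 24.5, 28.5, 20.3 and 29.1 FPKM at day 7 (−4.51). The methyltransferase Inmt stood at 269, 309 and 237 FPKM in control and 5.99, 7.24, 4.16 and 7.69 FPKM at day 7 (−5.25). Cyp1b1, a cytochrome of mesenchymal cells, went the other way, at 0.817, 0.728 and 0.831 FPKM in control and 21.4, 22.9, 13.4 and 26.8 FPKM at day 7 (3.59). None of these 3 genes overlapped between the groups. These metabolic falls came in the same libraries as the fall of the tubule lists, whose shares are given above. The part of tubule cell number in them was not tested.

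Mitotic genes rose without exception. All 26 listed genes were called higher (median 1.25 above all genes), and their share of the nuclear FPKM went from 0.00719% to 0.00765% in control to 0.0426% to 0.0517% at day 7. Cyclin B2 (Ccnb2), which drives entry into mitosis, stood at 1.55, 1.62 and 1.32 FPKM in control and at 13.6, 14, 8.58 and 10.2 FPKM at day 7 (log2 fold change 2.31, SE 0.21, adjusted p = 1.06e-06). Cdc20, which activates the anaphase ligase, stood at 2.41, 3.46 and 1.83 FPKM in control and 12.3, 16.1, 9.79 and 12.1 FPKM at day 7 (1.93). The groups did not overlap for either gene. Topoisomerase Top2a (2.05), Mki67 (1.81), the source of the Ki-67 antigen, and Plk1 (1.72) were called. The CCAAT box occurred in 90.9% and the cell cycle homology region (TTTGAA) in 77.3% of the 22 promoters found for this list, against 37% and 12.2% of all promoters. The promoters of Ccnb2 (GRCm38.p6, chr9:70421505-70421804, minus strand) and Cdc20 (chr4:118437294-118437593, minus strand) are shown from RefSeq because they hold both motifs, which capitals mark.
Ccnb2: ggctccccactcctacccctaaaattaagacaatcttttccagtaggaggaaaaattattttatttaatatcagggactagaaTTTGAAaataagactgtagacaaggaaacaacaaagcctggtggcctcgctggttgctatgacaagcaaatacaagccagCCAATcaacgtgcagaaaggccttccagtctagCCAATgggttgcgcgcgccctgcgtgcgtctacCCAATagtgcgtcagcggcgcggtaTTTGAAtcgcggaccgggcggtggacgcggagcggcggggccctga
Cdc20: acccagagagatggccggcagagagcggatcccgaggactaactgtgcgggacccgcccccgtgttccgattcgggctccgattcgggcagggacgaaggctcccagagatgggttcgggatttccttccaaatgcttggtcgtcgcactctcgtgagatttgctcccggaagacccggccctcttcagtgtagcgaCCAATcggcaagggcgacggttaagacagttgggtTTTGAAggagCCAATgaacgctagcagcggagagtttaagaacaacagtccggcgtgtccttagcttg
In Ccnb2 the CCAAT boxes start at −87, −54 and −21 and the cell cycle homology regions at −167 and 5, and in Cdc20 they start at −53 and −8 and at −18.

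Of 30 DNA replication genes, 29 rose and 0 fell (median 0.89 above all genes). Pcna, the sliding clamp of DNA polymerase, stood at 21.6, 23.6 and 21 FPKM in control and at 83.7, 83, 96.1 and 88 FPKM at day 7 (1.94). Cyclin E1 (Ccne1, 2.17) and the helicase subunit Mcm3 (1.89) rose. The E2F motif (TTTGGCGC, TTTCGCGC or TTTCCCGC) occurred in 38.7% of the 31 promoters found for this list, against 3.18% of all promoters. Genes that halt the cycle rose as well. Of 27 cell cycle inhibitors, p53 targets and senescence genes, 21 rose, 3 fell and 3 were not called (median 0.65 above all genes). Mdm2, the p53 ligase and p53 target, stood at 6.83, 5.78 and 7.53 FPKM in control and at 52.6, 40.6, 53.6 and 41.6 FPKM at day 7 (2.64). Cdkn1a (1.75), Cdkn2a (1.48) and the death activators Pmaip1 (3.00) and Bbc3 (2.58) were called.

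Cell death genes rose in most cases. Of 36 genes, 26 rose, 4 fell and 6 were not called (median 0.70 above all genes), with 8 falls after median centring. The necroptosis kinase Ripk3 stood at 1.47, 2.29 and 1.65 FPKM in control and at 23.3, 27.1, 23.3 and 21.8 FPKM at day 7 (3.15). The pore-forming Gsdmd stood at 3.47, 4.66 and 3.3 FPKM in control and 28.9, 29.6, 27.2 and 28.5 FPKM at day 7 (2.63). The groups overlapped for neither. The inflammatory caspases Casp1 (2.53) and Casp4 (2.79), the necroptosis pore Mlkl (2.05) and the sensor Nlrp3 (1.71) rose. Gpx4, which protects membranes from lipid peroxidation, fell (−1.65). The survival factor Bcl2 was not called (1.67 ± 0.317 FPKM in control and 1.64 ± 0.548 FPKM at day 7), whereas Mcl1 rose (2.09).

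Stress pathways rose by modest amounts. Of 25 genes of the unfolded protein response, 21 rose and 0 fell (median 0.41 above all genes), led by the co-chaperone Dnajb9 (2.38). Of 32 tRNA synthetases and ATF4 targets, 23 rose and 1 fell (median 0.39 above all genes). Atf4 itself stood at 107, 129.9 and 107 FPKM in control and 332, 348, 291 and 306 FPKM at day 7 (1.47), the glutathione-degrading Chac1 changed by 2.07 and the leucine carrier Slc7a5 by 1.97. Of 22 heat shock genes, 15 rose and 2 fell (median 0.36 above all genes). Median centring gave 13 rises in the unfolded protein response, 15 rises and 3 falls among synthetases and ATF4 targets, and 9 rises and 3 falls among heat shock genes. Hspa1a, the inducible Hsp70, was high in both groups, at 854, 975 and 864 FPKM in control and 2250.0, 2274, 2272 and 1925 FPKM at day 7 (1.28), and it shares near-identical sequence with Hspa1b. The lens and muscle chaperone Cryab fell (−1.52).

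Oxidative defence genes fell in larger numbers than they rose. Of 29 genes, 17 fell, 9 rose and 3 were not called (median −0.74 against all genes), with 11 rises and 9 falls after rescaling to TPM. Catalase (Cat) stood at 197, 189.8 and 197 FPKM in control and at 43.1, 41.5, 43.2 and 48.1 FPKM at day 7 (−2.12). Gpx3 stood at 225, 563, 165 and 223 FPKM at day 7 (−4.02), with replicate 2 highest. Gpx7, an endoplasmic reticulum peroxidase that promotes disulfide formation, went the other way, at 1.64, 1.92 and 1.51 FPKM in control and 36.2, 39.1, 11.9 and 33.4 FPKM at day 7 (3.41), with replicate 3 lowest. Heme oxygenase (Hmox1, 1.66) rose, and Nqo1 (−1.83), another target of the factor NRF2, fell.

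Immediate early genes were high at day 7. Of 26 genes, 25 rose and 0 fell (median 1.47 above all genes). Klf4, a factor of barrier epithelia and of monocytes, stood at 19.5, 18.8 and 18.3 FPKM in control and at 222, 204, 297 and 286 FPKM at day 7 (3.65). Egr2 (3.40), a zinc finger factor of myeloid and nerve sheath cells, Nr4a2 (3.01), Myc (2.36) and the AP-1 members Fosl2 (1.82) and Jun (1.58) rose. The CArG box occurred in 20.8% of the 24 promoters found for this list.

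Clock genes as a list stood near the background. Of 22 genes, 11 rose, 4 fell and 7 were not called (median 0.07 against all genes), and median centring gave 8 rises and 4 falls. The repressors Nfil3 (1.87) and Cry1 (1.45) rose, and the activators of the same DNA element as Nfil3, Hlf (−2.24), Tef (−1.26) and Dbp (−0.96), fell. The core activator Clock was not called (2.29 ± 0.576 FPKM in control and 2.78 ± 0.632 FPKM at day 7).

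Ribosomal protein genes changed little in the values as deposited. Of 43 genes, 23 rose, 0 fell and 20 were not called (median 0.09 above all genes), where median centring gave 4 rises and 3 falls and rescaling to TPM gave 43 rises. Quantile normalization gave 36 rises and 0 falls, with a median 0.42 above all genes. Genes in common use as references did not stay level. Of 19 such genes, 10 were higher, 4 lower and 5 not called in the values as deposited, a balance that turned to 4 and 7 after median centring. Gusb stood at 8.36, 9.86 and 7.91 FPKM in control and at 31.7, 37.9, 37.2 and 38.4 FPKM at day 7, Sdha at 141, 124 and 159 FPKM in control and 44.3, 46.6, 46 and 48.8 FPKM at day 7, and B2m, the light chain of MHC class I, at 387, 451 and 387 FPKM in control and 1491, 1079, 1315 and 1134 FPKM at day 7. None of these 3 overlapped between the groups. Tbp, the TATA-binding protein, stood at 0.582, 0.62 and 0.852 FPKM in control and 0.709, 0.863, 0.898 and 1.07 FPKM at day 7. The groups overlapped, and it was not called.

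Gene families grouped by symbol add to this picture. Among 278 solute carrier genes (Slc), 78 rose and 134 fell, with 112 rises and 106 falls after rescaling to TPM. Among 39 cytochromes P450 (Cyp), 9 rose and 24 fell. Of 15 glucuronosyltransferases (Ugt), 9 fell and 0 rose, and of 21 glutathione transferases (Gst), 16 fell and 2 rose. All 10 Adam proteases rose, as did 16 of 17 Adamts proteases. Of 64 genes named as CD antigens, 47 rose and 9 fell. Of 14 interferon-induced genes with the symbol Ifi, 13 rose. Among 281 zinc finger genes (Zfp), 106 rose and 28 fell, a balance that turned to 59 and 75 after median centring.

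The largest gains and losses in FPKM were as follows. Osteopontin (Spp1), a secreted phosphoprotein of injured tubules and macrophages, stood at 557, 424 and 588 FPKM in control and at 2342, 1634, 3114 and 1930.1 FPKM at day 7 (2.08) and showed the largest gain of mean FPKM among nuclear genes. Replicate 3 was the highest library. The class II chain H2-Eb1 stood at 404, 624 and 386 FPKM in control and 1560.4, 1371, 1687 and 1409.5 FPKM at day 7 (1.70). The largest losses after Kap and Gpx3 included S100g, the small calbindin of the distal tubule, at 1206, 1266 and 1007 FPKM in control and 121, 163, 145 and 172 FPKM at day 7 (−2.95). The groups did not overlap for Spp1, H2-Eb1 and S100g.

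The day 7 libraries differed among themselves in a few called genes. Il1f6, the epithelial interleukin 36 alpha, stood at 0, 0.0913 and 0.171 FPKM in control and at 11.7, 10.6, 72.2 and 19.6 FPKM at day 7, with replicate 3 far above the rest (4.32). Serpinb2, a protease inhibitor of macrophages, stood at 5.9, 40.6, 7.57 and 9.42 FPKM and Ccl24, an eosinophil-attracting chemokine of alternatively activated macrophages, at 3.36, 28.4, 4 and 6.41 FPKM, with replicate 2 highest for both. The log2 fold change of Ccl24 was 2.99 with replicate 2 and 2.38 without it. In control they stood at 0.0826, 0.258 and 0 FPKM and 0.0947, 0 and 0.0412 FPKM. The fat-cell genes adipsin (Cfd) and adiponectin (Adipoq) shared a pattern in which day 7 replicate 3 lay within the control range. Cfd stood at 7.27, 0.707 and 5.59 FPKM in control and at 25.6, 47.4, 3.21 and 42.1 FPKM at day 7, with a log2 fold change of 2.28, of 3.07 without replicate 3, and no call without control replicate 2 (adjusted p = 0.0941). Adipoq stood at 0.432, 0.0398 and 0.533 FPKM in control and 3.94, 4.1, 0.403 and 5.13 FPKM at day 7 (1.54, and 2.03 without replicate 3). Emp1, a membrane protein of injured epithelia, stood at 32, 6.65 and 9.12 FPKM in control and 9.69, 98.9, 54.8 and 93.6 FPKM at day 7 (1.83, adjusted p = 0.0284). Its groups overlapped, and it was not called with the replicate block (adjusted p = 0.0692), after median centring (adjusted p = 0.0657) or in a fit of control and day 7 alone (adjusted p = 0.0636). The log2 fold change was 2.47 without control replicate 1 and 2.56 without day 7 replicate 1, and without any other single library it was not called (adjusted p = 0.0526 to 0.125). Arhgap19, a GTPase regulator of dividing cells, stood at 0.579, 0.62 and 0.772 FPKM in control and at 9.73, 9, 0.553 and 9.88 FPKM at day 7. Replicate 3 lay below the control libraries, and the log2 fold change was 1.98 with it and 2.67 without it.

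Transcript shares within genes were compared for 16842 transcripts of 5474 genes with more than 1 listed transcript. A share is the FPKM of a transcript over the summed FPKM of the transcripts listed for its gene, and a change was called at an adjusted p under 0.05 and a difference of at least 20 percentage points. In all, 356 transcripts were called, which is 2.11% of those tested, 163 with a higher and 193 with a lower share at day 7, in 241 genes (4.4% of genes tested). With the replicate number as a block, 227 were called. In 115 genes a rise of a transcript came with a fall of another, and in 69 of these the most abundant transcript differed between the groups. The level of the gene was higher in 64 of the 115 genes, lower in 22 and not called in 29. All 115 pairs were annotated as protein coding in both members. The starts lay more than 500 bases apart in 49 pairs (42.6%), and in 26 pairs the coding parts were the same. In 34 pairs the starts and the ends both lay within 500 bases. The rising transcript had the longer coding part in 46 pairs and the shorter in 40. Transcript FPKM are estimates of the assembly software, which divides reads between overlapping transcripts.

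The exchange in Ifi47, an interferon-induced GTPase, was among the largest. Ifi47-201 held 98.2, 86.5 and 85.9% of the gene in control and 1.12, 0.939, 1.83 and 0.661% at day 7, a difference of −89.1 percentage points (SE 2.85, adjusted p = 1.55e-06). Ifi47-202, which starts 10452 bases further upstream and has the same coding part, held 0, 12.2 and 11.8% in control and 95.3, 96.1, 92.9 and 93.7% at day 7. The groups did not overlap in either transcript. In Bcor, which encodes a corepressor of BCL6, Bcor-201 held 5.33, 5.06 and 0% in control and 85.6, 80.1, 85.9 and 80.6% at day 7. It starts 79802 bases upstream of Bcor-206, and the coding parts are the same. The share of Bcor-206 fell by 26.3 points to near 0. That fall is smaller than the rise of Bcor-201, so other transcripts of the gene lost share as well. In Stat5b, a signal transducer of growth hormone, the gene itself was not called. Stat5b-202, which starts 28196 bases downstream of Stat5b-201 with the same coding part, held 1.01, 0.356 and 0.39% in control and 82, 71.1, 48.2 and 79.5% at day 7. All day 7 libraries lay above control, with a wide spread.

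Other exchanges altered the coding part. In Slc41a3, a magnesium carrier, Slc41a3-202 held 29.8% ± 11.2 in control and 96.7% ± 3.81 at day 7 (SD, n = 3 and n = 4), and its coding part is longer than that of Slc41a3-201 by 78 bases. For the following 3 genes, chosen after their values were seen, the calls held in every alternative that tested them. In galectin 9 (Lgals9), a sugar-binding immune regulator, the longer-coding Lgals9-203 (1059 coding bases against 966) held 34.7, 0 and 0% in control and 79.4, 77.4, 75.4 and 78.5% at day 7. In Pcsk5, a proprotein convertase, Pcsk5-202 held 40.9, 42.2 and 36.4% in control and 96.3, 98.2, 93.7 and 97.1% at day 7. It ends upstream of the end of Pcsk5-201 and has 2745 coding bases against 5631. In Ptpro, a receptor phosphatase of podocytes and of macrophages, Ptpro-201 held 44.5, 89.6 and 56.5% in control and was listed at 0 in all day 7 libraries. Ptpro-203, which also spans the whole gene, held 55.3, 10.4 and 28.9% in control and 2.64, 26.6, 10.8 and 50.5% at day 7, and was not called. Ptpro-202, which starts 158256 bases downstream of Ptpro-201 and has 1215 coding bases against 3678, held 0.22, 0.00242 and 6.54% in control and 36.3, 32.8, 38 and 25.2% at day 7, and the gene itself was not called (5.02 ± 0.72 FPKM in control and 4.84 ± 0.947 FPKM at day 7). Macrophage markers rose in the same libraries and podocyte genes were divided, and the part of these cell types in the exchange was not tested.

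In Tmem87a, a Golgi membrane protein, Tmem87a-202 held 3.88, 3.92 and 6.66% in control and 98.5, 90.1, 89.1 and 90.7% at day 7, and the call was lost without control replicate 1 (adjusted p = 0.0552). Tmem87a-202 and the falling Tmem87a-201 have the same end, start 20 bases apart and have 1680 and 1677 coding bases. Reads may be divided uncertainly between transcripts this alike. In Plod2, a collagen lysyl hydroxylase, Plod2-203 held 72.2, 13.9 and 13.7% in control and 98.6, 99.3, 97.9 and 98.9% at day 7, and the call was lost with the replicate block (adjusted p = 0.0599), without control replicate 2 (adjusted p = 0.0517) or 3 (adjusted p = 0.0508), and in a fit of control and day 7 alone (adjusted p = 0.0957). In Fgfr1, Fgfr1-213 was listed at 0 in all control libraries and held 78.2, 63.7, 76.5 and 70.4% at day 7, while the longer-coding Fgfr1-201 held 51.9, 51.5 and 44.7% in control and 2.17, 4.52, 2.79 and 3.41% at day 7. The rise of Fgfr1-213 was not called with the replicate block (adjusted p = 0.0894) or without any single library (adjusted p = 0.0601 to 0.0847). Rai14-207 was likewise not called with the block (adjusted p = 0.133) or without any single library (adjusted p = 0.0657 to 0.107). Sys1-202 lost its call with the block (adjusted p = 0.0919) and in 6 of 7 cases without a library (adjusted p up to 0.0674). In Mogat1, the falling Mogat1-202 lost its call with the block (adjusted p = 0.131) and in 5 of 7 cases (adjusted p up to 0.082). The rising Mogat1-201 kept its call without each single library. It held 1.67, 0.733 and 1.57% in control and 98.1, 99.8, 99.8 and 98% at day 7 (97.6 percentage points, limma adjusted p = 0.00162). The level of the gene fell from a mean of 44.3 to 2.53 FPKM.

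**Figure D5:**
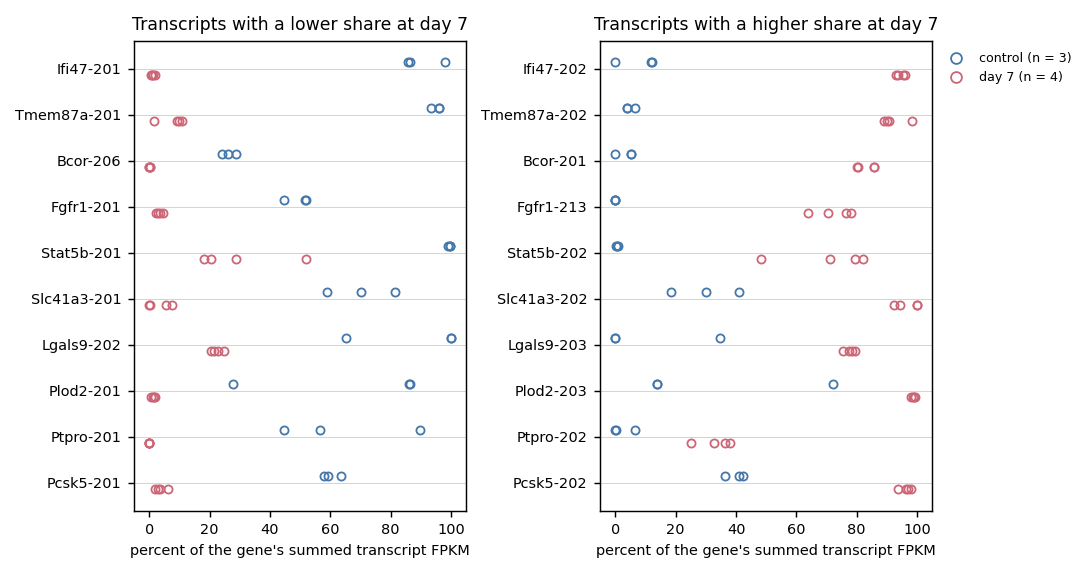
Share of selected transcripts in the summed transcript FPKM of their gene, in percent, in each control (blue) and day 7 (red) library. For each gene, the called transcript with the largest fall is on the left and that with the largest rise on the right. In Ifi47 and Tmem87a the exchange is near complete in the estimated shares, and Stat5b shows the widest spread among day 7 libraries.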

How the data were processed

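Per the labels, Trizol was used to isolate total RNA, and the libraries were stranded and run on an Illumina NovaSeq instrument. GRCm38 is the build, and cutadapt, HISAT2 and StringTie are the tools, that appear in the submitters' processing notes, with no versions. Whether the quantification used the strand is not given in the sources used here, so genes that overlap on opposite strands are uncertain. The deposited tables hold FPKM values per gene and per transcript that the authors had already normalized, with no read counts, so depth and counting error are unknown.

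Of 13985 genes, 13428 with a mean of 0.5 FPKM or more over the 11 libraries were tested, and 17 symbols are listed under 2 identifiers and are not named. Values were converted to log2(FPKM + 1) and fitted with limma 3.58.1 (R 4.3.3; lmFit, eBayes with trend) in a single model of control, day 3 and day 7, with Benjamini-Hochberg adjustment over all genes and a threshold of 0.05. SDs are over 3 control and 4 day 7 libraries. Transcript shares were fitted with limma in genes with 2 or more listed transcripts and a mean summed FPKM of 2 or more in both groups. Transcript positions and coding lengths come from the mouse annotation of GRCm38. Both fits were run on simulated data with known changes in few features and independent normal noise of equal spread in all groups. The real data differ from those settings, so the runs check the code only. Gene lists were described by counts and medians only, and promoters were searched for fixed motifs.

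The gene lists and other members were chosen with earlier results of these data known. Named genes were the 12 largest rises and falls outside the lists, among called genes with 5 FPKM or more in a group and no overlap between the groups. Up to 4 leading called members of each list, up to 2 in the other direction, and defining members were also named. The 10 largest gains and losses of FPKM, the 8 called genes most variable among the day 7 libraries, reference genes, and the 10 largest exchanges of transcripts were added. Some genes given without statistics beyond a fold change, and Lgals9, Pcsk5 and Ptpro, were chosen after their values were seen. Some genes that these rules choose are not reported here. Deviations from the group means correlated between control and day 7 libraries whose titles carry the same number (r = 0.168, 0.428 and 0.166 across genes for numbers 1, 2 and 3). Between libraries of unlike number, r ran from −0.365 to 0.135, so that only number 2 stood well apart. Any pairing by number rests on the titles and these deviations alone and is uncertain. The main model did not use the number, and a model with it as a block was run as an alternative. Other alternatives were the scaling, the pseudocount, the filter on low values, the samples in the model and leaving out each library.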

Additional observations from a re-analysis of the deposited data

Results flagged for a closer look

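In each gene named in the report and in the summed share of each list, the 4 day 7 libraries were searched for a library far from the other 3 (Dixon's test at the 95% level). Of 366 such sets of 4 values, 27 held such a library. The sets are not independent, and some genes were named because of their spread at day 7. The nominal rate of 1 in 20 is therefore no baseline for this count.

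Day 7 replicate 3 was the most frequent. It was low for Col1a1 (563 FPKM), Col6a3 (20.8 FPKM), Mfap5 (15.6 FPKM), Mmp2 (48.2 FPKM), Pycr1 (1.26 FPKM) and Arhgap19 (0.553 FPKM), and for the shares of collagens (0.677% of nuclear FPKM), of genes for export from the endoplasmic reticulum (0.23%) and of mesothelial, adipocyte and glial genes (0.0223%). It was also low for the tubule enzymes Acy3 (16.7 FPKM) and G6pc (2.14 FPKM). The same library was high for Il1f6 (72.2 FPKM), Ccl4 (184 FPKM), Gata3 (15.8 FPKM), Trpm6 (3.93 FPKM) and the share of macrophage markers (3.49%).

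Day 7 replicate 2 was high for Gpx3 (563 FPKM), Hba-a1 (41.6 FPKM), Lyve1 (23 FPKM), Ccl24 (28.4 FPKM), Serpinb2 (40.6 FPKM), Krt8 (416 FPKM) and the share of red blood cell genes (0.0733%). Day 7 replicate 4 was low for Hspa1a (1925 FPKM) and high for Igf2 (7.93 FPKM). Day 7 replicate 1 was set apart for Myc (63.8 FPKM) and Vdr (9.86 FPKM).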

How the results depend on the processing

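The number of called genes was 9379 and lay between 7596 and 10526 under the alternatives, and between 8694 and 9222 when a library was left out. The lowest count came with a minimum mean of 2 FPKM. There only 10539 genes were tested, and 72.1% of them were called, against 69.8% in the main fit. Genes called lower numbered 3162, and 1967 after rescaling to TPM. The replicate block gave 9512 called genes and, beside Ifit3 (adjusted p = 0.0549) and Emp1 (adjusted p = 0.0692), changed no other call of a gene named in the report. Of the genes called as deposited, 79.0% (median centring) to 99.7% (pseudocount of 0.1) were also called under each alternative other than the absence of a filter, which kept 9376, and 2 genes after rescaling to TPM and 1 after quantile normalization were called with the opposite sign. Ifit3 turned from −0.45 to 0.009 after rescaling to TPM. With a minimum mean of 2 FPKM, the list median relative to all genes turned to 1.27 for T and NK cells and to 0.24 for the thin limb, since only part of each list remained. Of 969 list medians recomputed, a further 108 moved by more than the spread between replicates, 30 of them with a pseudocount of 0.1, 22 after rescaling to TPM and 20 after quantile normalization. Among these, small medians changed sign without control replicate 3. Ribosomal proteins went from 0.09 to −0.04 and reference genes from 0.04 to −0.05. The largest moves were to 2.22 for mesenchymal factors, 3.23 for activated fibroblast markers, 2.10 for mitosis and 1.30 for mesothelial, adipocyte and glial genes with a pseudocount of 0.1, and to −1.25 for the mitochondrial genome after quantile normalization. Transcript changes numbered 356 (2.11% of those tested), against 227 with the replicate block, and between 281 and 392 when a library was left out. With a minimum summed FPKM of 5, 231 of only 12447 transcripts tested were called (1.86%). The log2 ratio gave 405, a minimum summed FPKM of 0.5 gave 430, and a fit of control and day 7 alone gave 254. With no counts in the files, no interval for counting error can be given, and low FPKM values are the least certain.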
